A study of Xenopus tropicalis with 7 samples.

Results

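The genes described here, in whole Xenopus tropicalis embryos, bear symbols of gene families with roles in building and moving cilia, the hair-like extensions of the cell surface. They were chosen by symbol from the polyA RNA table: every gene whose symbol opens with dnah, dnai, dnal, tekt, ift, bbs, rsph, spag or rfx followed by a digit, together with foxj1, foxj1.2 and ccdc39. The rule found 55 of the 19884 genes in the table, including DNAH1, DNAH3, DNAH6 and DNAH10, which the table writes in capitals. The rule itself uses no measured value, but it was chosen with earlier results of these data known. Some of the genes, such as rfx5 and spag9, are known for other roles, and all 55 are called cilia genes below. All 55 genes had enough reads to be tested. They comprised 8 transcriptional regulators, 15 dynein arm genes, 5 radial spoke genes, 1 axoneme ruler gene, 4 tektins, 5 spag genes, 10 genes of intraflagellar transport (IFT) and 7 BBSome genes.

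The study asked what the T-box transcription factors Xbra and Xbra3, the Brachyury proteins of this frog, do in the embryo. Wild-type embryos of the Nigerian (Cam4) strain were injected at the 1-cell stage with 20 ng of antisense morpholino oligonucleotides in all. The knock-down (KD) embryos received oligonucleotides that block splicing and translation of Xbra and Xbra3, and the control embryos received a morpholino against human β-globin. Both groups were grown to early tadpole stage 32 and give 3 libraries each, labelled as biological replicates 1 to 3. A single library came from uninjected embryos of early tailbud stage 20. In the paper, the KD embryos had a severely shortened body axis by the tadpole stage. Every library holds RNA to the amount of 2 whole embryos, and levels are shares of that RNA. A lower level can come from fewer cells of a type or from less RNA per cell. A higher level can come from the reverse, or from a smaller share of other tissues. These cannot be told apart.

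Motile cilia beat through dynein motors fixed in rows along the microtubule doublets of the axoneme, the cilium's core. Outer arms set the beat frequency, inner arms and radial spokes shape the bend, and tektins lie inside the doublets. IFT trains carry axoneme parts into the growing cilium and back, and the BBSome moves membrane proteins along it. Foxj1 is the transcription factor that switches on the motile cilium genes, and several RFX factors act beside it. In frog embryos motile cilia stand on multiciliated cells of the larval skin, in the gastrocoel roof plate, in the neural tube and in the pronephros, and most other cells carry a non-motile cilium that also needs IFT and the BBSome.

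The counts of a library summed to 73740300 to 120160026 read pairs assigned to transcripts, called reads here. They are given below as CPM, a gene's reads per 1000000 reads of its library, after scaling by the trimmed mean of M-values (TMM). The transcript of t2, the gene of Xbra3, was at 0.614 ± 0.138 CPM (SD, n = 3) after KD, against 22.1 ± 6.73 CPM, and that of t, the gene of Xbra, at 7.53 ± 1.14 and 14.5 ± 4.05 CPM. Of 16944 genes tested with edgeR's quasi-likelihood test, 1261 were higher and 1182 lower in the KD at a false discovery rate (FDR) below 10%. Same-numbered KD and control libraries deviated together from their group means, with correlations of 0.573, 0.586 and 0.316 over all genes. The sample titles give only the order of the replicates, so pairing by number is an inference from these data. The paper reports considerable variation between these replicates, I and III against II, with clustering that did not follow the KD. Over the 55 cilia genes alone the correlations were 0.657, 0.623 and -0.06, so in these genes the libraries of pair 3 did not deviate together. Values with the replicate number as a block are therefore given where they change a call.

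At stage 32, 9 of the 55 cilia genes rose in the KD and none fell. The 9 were the regulators foxj1, rfx4 and rfx1, the dynein heavy chains dnah5, dnah7 and dnah17, the spoke head gene rsph9, and the IFT genes ift81 and ift140. They made up 16.4% of the cilia genes, against 7.44% of all genes tested that were called higher, while 6.98% of all genes tested were called lower. Of the 55, 13 (23.6%) had an unadjusted edgeR p below 0.05, close to the 25.2% of all genes. All 13 had fold changes above 0, whereas over all genes 12.9% passed that limit as higher and 12.3% as lower. DESeq2 called 10 cilia genes higher (18.2%, against 10.1% of all genes) and 0 lower (10.7% of all genes). The number called higher was 4 when KD replicate 1 or 2 was left out, 6 when KD replicate 3 was, and 5 when any one of the control replicates was, and foxj1, rfx4, dnah5 and ift81 were called in all 6 of these fits. Over all genes, 691, 614 and 704 were called higher without KD replicates 1, 2 and 3, in place of 1261. Leaving out control replicates 1, 2 and 3 gave 665, 918 and 433. The median log2 fold change, KD over control, was 0.19 over the cilia genes and 0.01 over all genes tested, and the medians within the 3 same-numbered pairs were 0.20, 0.30 and 0.16. With the replicate block, 19 cilia genes were higher (34.5%, against 19.2% of all genes) and 2 lower (3.64%, against 19.0%), the latter being dnah11 (FDR 0.0869) and spag1 (FDR 0.0361). All 3 KD libraries lay above all 3 control libraries for 16 cilia genes (29.1%, against 15.9% of all genes), and the reverse held for none of them (14.6% of all genes).

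**Figure D1:**
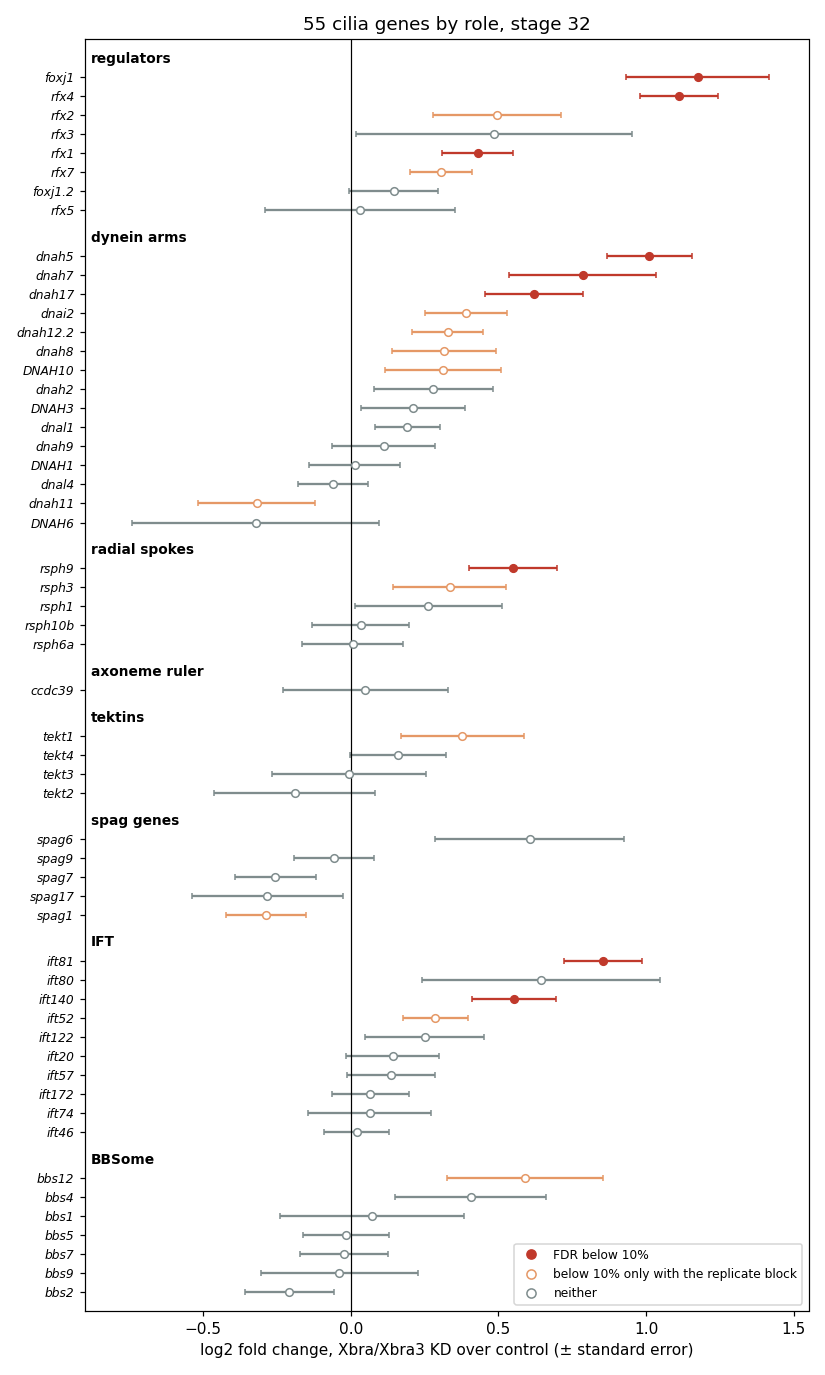
Log2 fold change of each of the 55 cilia genes between Xbra/Xbra3 KD and control embryos at stage 32, with its standard error, grouped by role. The 9 genes with an FDR below 10% all lie to the right of 0, at log2 fold changes from 0.43 to 1.18, and the lowest of the 55 is DNAH6 at -0.32.

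Direction depends on scaling for the genes near 0. The fitted fold change was above 0 for 42 cilia genes with TMM, for 41 with DESeq2 size factors, for 48 with library size alone and for 49 when libraries were scaled to the summed reads of odc1, rpl8, eef1a1 and gapdh. Those 4 reference genes moved the median of all genes to 0.21, and the cilia genes' median of 0.39 stood 0.19 above it. With library size alone 13 cilia genes were higher (23.6%, against 9.73% of all genes), and with the reference genes 16 (29.1%, against 10.6%). The share of lower calls among all calls was 48.4% with TMM, 34.5% with library size and 18.2% with the reference genes. No cilia gene was called lower under any of these scalings. The genes whose sign turned with the scaling were bbs5, bbs7, bbs9, dnal4, rsph6a, spag9, tekt2 and tekt3.

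Among the regulators, foxj1 rose most. Its gene (ENSXETG00000019549) stood at 94.7, 64.1 and 83.0 CPM in KD replicates 1, 2 and 3 and at 39.3, 23.99 and 43.8 CPM in the control replicates. The lowest KD library was thus above the highest control library, and in both groups replicate 2 was the lowest. The log2 fold change was 1.18 ± 0.24 (SE), or 2.26-fold, with an edgeR FDR of 0.0282, and the FDR stayed below 10% whichever stage 32 library was left out (up to 0.0935). The related foxj1.2, another foxj1 gene of the frog, did not pass the test: its libraries were at 23.7, 20.8 and 20.0 CPM in the KD, compared with 22.6, 17.0 and 18.7 CPM in the control, and the groups overlapped (log2 fold change 0.15 ± 0.15, FDR 0.596).

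Of the 6 RFX genes, which encode winged-helix factors binding the X-box motif, rfx4 and rfx1 rose. Rfx4, known from mouse for its role in the neural tube, was at 32.8, 31.6 and 28.1 CPM in the KD, compared with 15.4, 12.9 and 14.5 CPM in the control (ENSXETG00000014145). Its log2 fold change of 1.11 ± 0.13 had the lowest FDR of the 55 genes, 0.00508, and held without any one library. Rfx1 (ENSXETG00000005567) was at 31.4, 28.8 and 27.6 CPM against 20.4, 21.5 and 23.1 CPM. Its change was smaller, at 0.43 ± 0.12 (FDR 0.0705), and the FDR was above 10% whichever library was left out (up to 0.185).

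The remaining RFX genes did not pass the test without the block. Rfx2, which multiciliated cells of Xenopus need to build cilia, was at 6.09, 4.55 and 4.42 CPM in the KD, compared with 3.81, 3.91 and 2.93 CPM in the control. The groups did not overlap, and its log2 fold change was 0.50 ± 0.22 with an edgeR FDR of 0.203, or 0.0446 with the replicate block. Rfx7 was at 70.1, 77.2 and 79.5 CPM against 61.2, 63.2 and 59.4 CPM, again without overlap (0.30 ± 0.10, FDR 0.121, and 0.0365 with the block). Rfx3, needed for cilia in mouse, and rfx5, known in mammals for MHC class II genes, were scarcely read. Rfx3 was at 0.293, 0.516 and 0.228 CPM in the KD, compared with 0.152, 0.249 and 0.338 CPM in the control, and rfx5 at 0.449, 0.465 and 0.501 against 0.555, 0.489 and 0.312 CPM. Their groups overlapped, at log2 fold changes of 0.49 ± 0.47 and 0.03 ± 0.32, and with 167 and 279 reads over the 6 libraries the standard errors are wide.

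**Figure D2:**
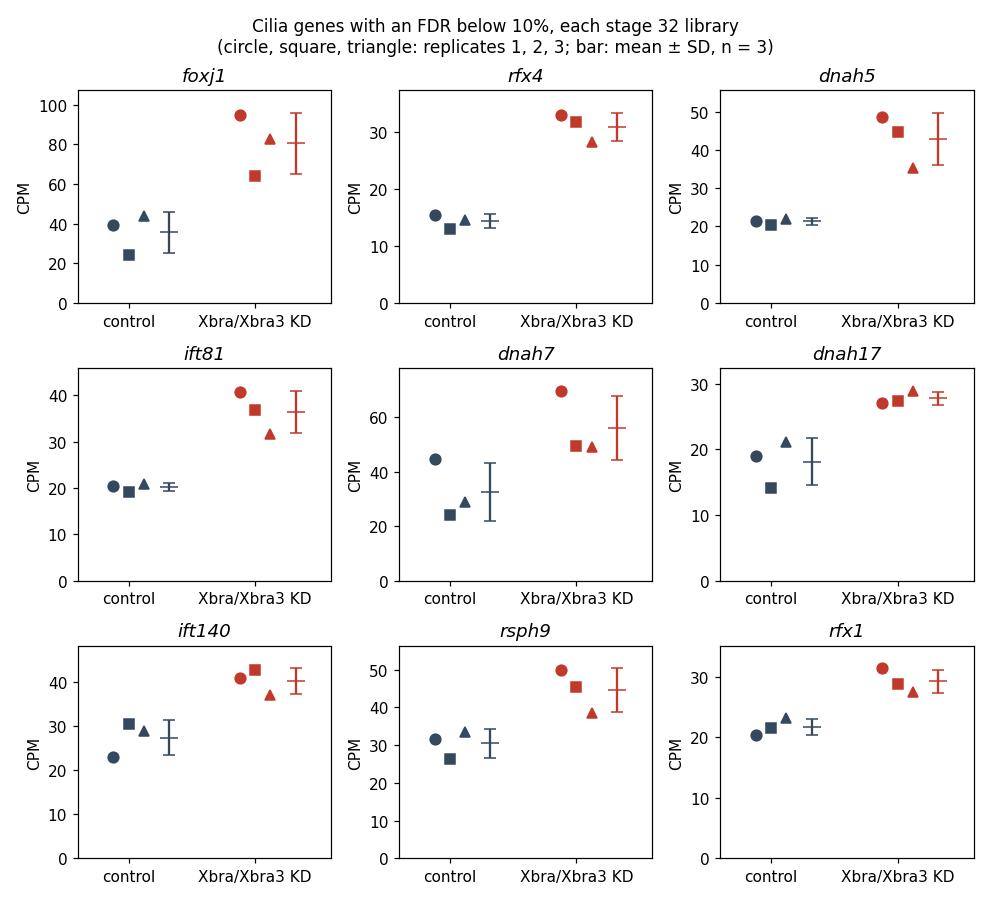
Level in CPM, on axes from 0, of the 9 cilia genes that rose in the KD, for each of the 3 control and 3 KD libraries at stage 32, with mean and SD beside the points. In each of the 9 panels all KD libraries lie above all control libraries, and the 3 lowest FDRs are those of rfx4, dnah5 and ift81.

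Of the 15 dynein arm genes, dnah5, dnah7 and dnah17 rose and 12 did not pass the test. Dnah5, an outer arm heavy chain whose loss causes primary ciliary dyskinesia in humans, was at 48.7, 44.8 and 35.3 CPM in the KD, compared with 21.4, 20.4 and 22.0 CPM in the control (ENSXETG00000021408). The 3 control libraries lay within a narrow range and every KD library was well above it. The log2 fold change was 1.01 ± 0.14 with an edgeR FDR of 0.00904, below 10% without any one library. Dnah7 (ENSXETG00000022093), an inner arm heavy chain, was at 69.9, 49.4 and 49.3 CPM against 44.7, 24.1 and 29.0 CPM. Its KD and control libraries were separated by a small gap only, with replicate 1 the highest in both groups. The log2 fold change was 0.78 ± 0.25 at an FDR of 0.0974, which passed in only 1 of the 6 fits that left out a library, ranged up to 0.265, and was 0.107 with DESeq2 size factors. Dnah17 (ENSXETG00000025251), another outer arm heavy chain, was at 27.1, 27.4 and 29.0 CPM against 19.0, 14.2 and 21.2 CPM. Its change of 0.62 ± 0.17 had an FDR of 0.0625 and likewise passed in 1 of those 6 fits.

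Among the dynein genes that did not pass, the outer arm intermediate chain dnai2 had the largest fold change above 0. It was at 36.4, 33.4 and 33.1 CPM in the KD, compared with 28.1, 22.0 and 28.6 CPM in the control, with no overlap (0.39 ± 0.14, edgeR FDR 0.128, and 0.0260 with the block). The block also brought dnah12.2, dnah8 and DNAH10 below 10%, at log2 fold changes without it of 0.33, 0.32 and 0.31. Inner arm heavy chains DNAH1, dnah2 and DNAH3, the outer arm heavy chain dnah9 and the light chain genes dnal1 and dnal4 lay between -0.06 and 0.28 and passed in neither fit. At the other end stood DNAH6 and dnah11. DNAH6, an inner arm heavy chain, was at 10.8, 7.41 and 11.5 CPM in the KD, compared with 16.9, 4.95 and 15.4 CPM in the control, so that control replicate 2 was the lowest of the 6 and the other control libraries the highest. Its log2 fold change of -0.32 ± 0.42 (FDR 0.685) became -0.73 (FDR 0.0923) without control replicate 2. Dnah11, an outer arm heavy chain linked to left-right asymmetry in mouse and humans, was at 7.81, 7.48 and 5.36 CPM against 9.53, 8.70 and 7.44 CPM, lower in each same-numbered pair (-0.32 ± 0.20, FDR 0.366).

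The heavy chain genes code for long and similar proteins. Read pairs that matched transcripts of different genes were discarded before deposit, and how many pairs of the heavy chains this removed from each library was not measured.

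In the radial spokes, rsph9 rose and the other 4 genes did not pass. Rsph9, a spoke head protein, was at 49.9, 45.3 and 38.5 CPM in the KD, compared with 31.6, 26.2 and 33.6 CPM in the control (ENSXETG00000010879). The groups did not overlap, with a log2 fold change of 0.55 ± 0.15 and an edgeR FDR of 0.0649 that passed in 1 of the 6 fits without a library (up to 0.165). The stalk gene rsph3 was at 49.9, 41.4 and 39.1 CPM against 42.3, 25.99 and 35.0 CPM. Here control replicate 1 alone reached into the KD range (0.34 ± 0.19, FDR 0.323, and 0.0547 with the block). The spoke head genes rsph1, rsph10b and rsph6a had log2 fold changes of 0.26, 0.03 and 0.01. Ccdc39, which together with ccdc40 sets the spacing of arms and spokes along the doublet, was at 1.16, 1.13 and 1.203 CPM in the KD, compared with 1.47, 0.854 and 1.05 CPM in the control, with overlap (0.05 ± 0.28). Ccdc40 and mcidas, which the rule also names, were not analysed here.

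None of the 4 tektins passed the test. Tekt1 was at 51.5, 43.2 and 44.2 CPM in the KD, compared with 43.4, 24.7 and 38.9 CPM in the control, and KD replicate 2 lay just below control replicate 1 (0.38 ± 0.21, edgeR FDR 0.304, and 0.0475 with the block). Tekt2 was at 88.8, 59.5 and 53.7 CPM against 101, 51.8 and 77.6 CPM, a wide overlap in which replicate 1 was the highest of both groups (-0.19 ± 0.27, FDR 0.717). Tekt3 and tekt4 had log2 fold changes of -0.01 and 0.16.

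The symbol spag joins genes of unlike roles, and none of the 5 passed without the block. Spag6, a central pair protein, was at 1.79, 1.42 and 1.19 CPM in the KD, compared with 0.939, 0.676 and 1.33 CPM in the control, overlapping only through replicate 3 (0.61 ± 0.32, edgeR FDR 0.287, 709 reads in all). Spag17, also of the central pair, was at 2.69, 2.54 and 1.549 CPM against 2.68, 2.72 and 2.81 CPM (-0.28 ± 0.26). Only KD replicate 3 stood apart there. Spag1, which helps to assemble dynein arms before they enter the cilium, was at 49.3, 43.2 and 56.0 CPM against 60.7, 54.7 and 65.9 CPM. It was lower in all 3 same-numbered pairs although the groups overlapped (-0.29 ± 0.14, FDR 0.234, and 0.0361 with the block). Spag7 was at 37.1, 33.5 and 29.3 CPM against 35.9, 39.7 and 43.8 CPM (-0.26 ± 0.14, FDR 0.292), and spag9, a scaffold of the JNK pathway, had a log2 fold change of -0.06.

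Among the 10 IFT genes, ift81 and ift140 rose and every fitted fold change was above 0. Ift81, which binds tubulin cargo in the IFT-B train that moves toward the tip, was at 40.8, 36.8 and 31.7 CPM in the KD, compared with 20.5, 19.1 and 20.8 CPM in the control (ENSXETG00000020945). The groups were far apart, and the log2 fold change of 0.85 ± 0.13 (edgeR FDR 0.0119) held without any one library. Its partner in tubulin binding, ift74, was at 3.37, 3.18 and 2.97 CPM against 3.50, 2.51 and 3.11 CPM. For ift74 the groups overlapped, at a log2 fold change of 0.06 ± 0.21. Ift140, of the IFT-A train that returns to the cell body, was at 40.8, 42.6 and 37.0 CPM against 22.9, 30.4 and 28.8 CPM (ENSXETG00000024434). All KD libraries were above all control libraries, and the change of 0.55 ± 0.14 had an FDR of 0.0572, below 10% in 2 of the 6 fits without a library.

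Ift80, of the IFT-B train, had only 181 reads over the 6 libraries, at 0.528, 0.314 and 0.273 CPM against 0.286, 0.214 and 0.208 CPM (0.64 ± 0.40, edgeR FDR 0.367). Ift52, also of IFT-B, was at 41.1, 43.6 and 41.3 CPM in the KD, compared with 35.9, 31.7 and 35.8 CPM in the control, with no overlap (0.29 ± 0.11, FDR 0.156, and 0.0589 with the block). The IFT-A gene ift122 and the IFT-B genes ift20, ift57, ift172 and ift46 had log2 fold changes from 0.02 to 0.25, lowest for ift46, and passed in neither fit.

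The BBSome genes showed no change that passed. Bbs12, a chaperonin-like protein that helps to assemble the complex, was at 2.64, 2.79 and 1.82 CPM in the KD, compared with 1.85, 1.62 and 1.29 CPM in the control, where KD replicate 3 overlapped with control replicate 1 (0.59 ± 0.26, edgeR FDR 0.212, and 0.0378 with the block). Bbs4, a core subunit with 514 reads in all, was at 0.889, 1.02 and 1.07 CPM against 0.662, 0.828 and 0.754 CPM, without overlap (0.41 ± 0.26, FDR 0.371). At the low end bbs2, another core subunit, was at 13.3, 16.3 and 17.1 CPM against 16.6, 19.8 and 17.6 CPM (-0.21 ± 0.15, FDR 0.435). Bbs1 was at 10.9, 18.6 and 17.3 CPM against 10.1, 21.7 and 12.8 CPM, a spread within each group that was larger than the difference between them (0.07 ± 0.31). The core subunits bbs5, bbs7 and bbs9 lay between -0.04 and -0.02. Class medians of the log2 fold change were 0.46 for the regulators, 0.28 for dynein arms, 0.26 for radial spokes, 0.20 for IFT, 0.08 for tektins, -0.02 for the BBSome and -0.26 for the spag genes. Whether the classes differ was not tested.

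Libraries within a group were not alike for the axoneme genes (dynein arms, radial spokes, ccdc39 and tektins, 25 genes). Control replicate 2 was the lowest control library for 21 of the 25 (84%) and for 37.6% of all genes tested, and KD replicate 1 was the highest KD library for 18 (72%), against 34.3% of all genes. For the 17 IFT and BBSome genes these counts were 5 and 6. The median log2 fold change of the 25 axoneme genes was 0.21 with all libraries. It was 0.11 without control replicate 2, where dnah5 was the 1 gene of the 25 called higher, in place of 4, and DNAH6 was called lower, and also 0.11 without KD replicate 1. The radial spoke median fell to 0.03 without control replicate 2, and the tektin median was -0.06 without control replicate 2 and -0.09 without KD replicate 1. Each of these fits kept the same-numbered partner of the library left out. How much of these shifts comes from breaking a pair was not tested. Within pairs 1, 2 and 3 the axoneme median of the log2 ratio was 0.22, 0.47 and 0.15.

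Read by same-numbered pairs, 25 of the 55 cilia genes were higher in the KD in all 3 pairs (45.5%, against 29.9% of all genes) and 3 (dnah11, spag1 and bbs2) were lower in all 3 (5.45%, against 28.4% of all genes). All 9 genes that rose were higher in every pair. Pair medians varied in several classes: the dynein arm median was 0.22, 0.53 and 0.16 in pairs 1, 2 and 3. The radial spoke median was 0.24, 0.67 and -0.03, and the tektin median 0.19, 0.34 and -0.36. The BBSome median was -0.002, -0.22 and 0.35. IFT medians were 0.29, 0.29 and 0.18, and those of the spag genes 0.05, -0.24 and -0.24. Regulator medians were 0.65, 0.36 and 0.51. Pair 2 holds the control library that was low for the axoneme genes.

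**Figure D3:**
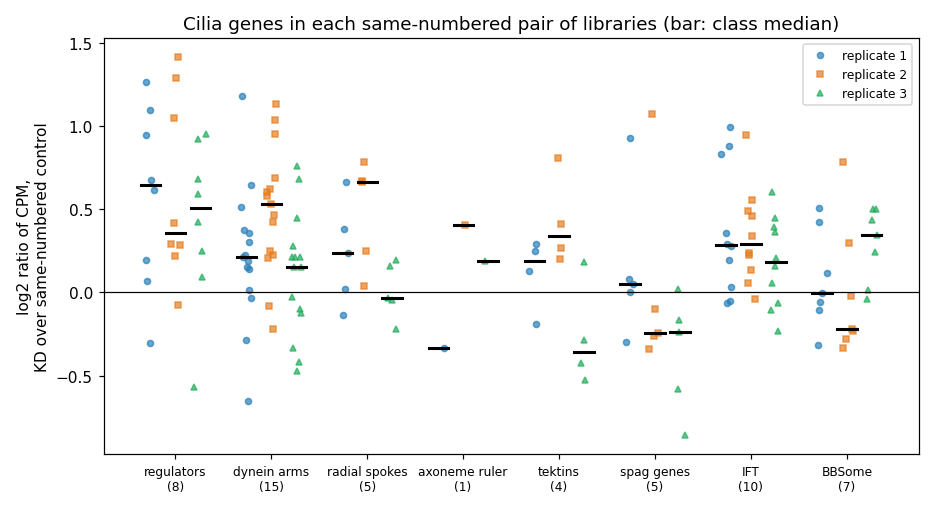
Log2 ratio of CPM between each KD library and the control library with the same replicate number, 1 point per gene, by role, with the class median as a bar. The regulator medians lie above 0 in all 3 pairs, while the tektin median is 0.34 in pair 2 and -0.36 in pair 3.

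Ratios of genes within a library do not depend on how libraries are scaled. Those given here were picked after the values were seen and carry no test. Reads of foxj1 over reads of foxj1.2 were 4.0, 3.08 and 4.15 in the KD and 1.74, 1.41 and 2.34 in the control, so the KD libraries all lay above the control libraries. The reads of foxj1 over the summed reads of the dnah genes were 0.209, 0.163 and 0.222 against 0.107, 0.0945 and 0.130. Within the outer arm, dnah5 over dnah9 was 0.925, 0.879 and 0.819 against 0.465, 0.580 and 0.405. The ratio of ift81 to ift74 was 12.1, 11.6 and 10.7 in the KD and 5.86, 7.61 and 6.71 in the control, and that of rfx4 to rfx2 was 5.39, 6.95 and 6.36 against 4.03, 3.31 and 4.96.

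Other cilia genes, outside the rule, were read through 4 lists written from general knowledge with results of these data known. For reference, 7.44% of all genes tested were called higher and 6.98% lower, and with the replicate block 19.2% and 19.0%. In the list of multiciliated cell regulators and centriole amplification, 2 of 19 genes tested were higher and none lower, with a median log2 fold change of 0.09. The 2 were tp73 (0.82 ± 0.25, edgeR FDR 0.0894), a p53 family factor upstream of foxj1 in mouse multiciliated cells, and CEP164 (0.72 ± 0.14, FDR 0.0229), a basal body protein that docks the basal body to the membrane. Without 1 library CEP164 held in all 6 fits and tp73 in none. In the list of dynein arm assembly and docking, 2 of 17 were higher and 1 lower (median 0.21). The lower gene was ccdc103, which attaches dynein arms to the doublet: it was at 12.7, 11.5 and 11.6 CPM in the KD, compared with 24.9, 20.7 and 20.1 CPM in the control (-0.88 ± 0.14, FDR 0.0127). No KD library reached the control range, and the call held without any one library. The higher genes were c11orf70 (0.64, FDR 0.0457), also named cfap300, and pih1d1 (0.34, FDR 0.0896). Without 1 library c11orf70 passed in 2 of the 6 fits and pih1d1 in none. With the replicate block the counts higher and lower were 4 and 3 in the centriole list and 8 and 3 in the dynein assembly list.

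Of 50 other axoneme genes tested, 8 were higher and none lower (7.44% and 6.98% of all genes), with a median log2 fold change of 0.36. Of the 8, the largest changes belonged to cfap74, a central pair gene listed by its RefSeq protein (1.16 ± 0.20, edgeR FDR 0.0161), iqcd, of the nexin link (1.09 ± 0.27, FDR 0.0515), and efhc2, of the doublet lumen (0.97 ± 0.25, FDR 0.0547). Efhc2 was at 84.1, 56.8 and 64.8 CPM in the KD, compared with 44.9, 23.6 and 36.2 CPM in the control, and control replicate 2 was again the lowest of the 6 libraries. Further from 0 than any of the 8, without passing, lay the central apparatus gene spef1 (-1.25 ± 0.63, FDR 0.268), at 0.557, 0.503 and 0.419 CPM in the KD, compared with 0.438, 2.31 and 0.676 CPM in the control. Without 1 library, cfap74 passed in all 6 fits, efhc2 in 3 and iqcd in 2. With the replicate block 27 of the 50 were higher and 1 lower, against 19.2% higher and 19.0% lower over all genes. Among 48 IFT and BBSome subunits with other names, motors and transition zone genes, 6 were higher and 1 lower (median 0.16). The IFT-A subunit wdr19 was at 13.9, 16.6 and 16.8 CPM in the KD, compared with 7.92, 10.1 and 9.61 CPM in the control (0.77 ± 0.16, FDR 0.0283). Dync2li1, a subunit of the dynein that drives the return train, followed at 0.72 ± 0.13 (FDR 0.0190). The 1 lower gene was mkks, a chaperonin-like protein for BBSome assembly (-0.81 ± 0.17, FDR 0.0285). Without 1 library, dync2li1 passed in all 6 fits, and wdr19 and mkks in 5 each. With the block 10 of the 48 were higher and 2 lower, beside the same 19.2% and 19.0% over all genes.

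Lists of cell type markers were read in the same libraries, and muscle and neural progenitors had the largest shares of genes called. For reference, 7.44% of all genes tested were called higher and 6.98% lower. All 14 muscle genes had fold changes below 0 and 12 were called lower (median log2 fold change -1.25), and their summed level ranged from 8599 to 10290 CPM in the KD and from 21150 to 21980 CPM in the control. Of 20 neural progenitor genes 11 were higher and none lower (median 0.57, summed level 1185 to 1566 CPM against 976 to 1203 CPM), among them zic1, at 0.98 ± 0.11 (edgeR FDR 0.00458). Fabp7 weighs heavily in this sum, at 381.6 CPM in KD replicate 2 and 582.8 CPM in control replicate 2. Its log2 fold change was -0.41 ± 0.41, while 18 of the 20 genes were above 0. Of 14 neuron genes 2, isl1 and tubb2b, were higher (median 0.32, 1258 to 1559 CPM against 923 to 1224 CPM). Of 10 entries in the list for the floor plate, a ciliated midline tissue, ferd3l alone was higher (median 0.20, 243 to 266 CPM against 222 to 257 CPM). This list holds 2 entries of ntn1, at log2 fold changes of -0.53 and 0.13. It also holds nkx2-2, which is counted among the neural progenitors as well. In the pronephros list of 13 genes, pax2 was higher and slc12a1, a tubule transporter, lower (median 0.20), with summed levels of 285 to 368 and 236 to 312 CPM. In the 6 fits that left out 1 library, ferd3l passed in 1, tubb2b in 2, slc12a1 in 4, pax2 in 5, and isl1 and zic1 in all 6. Calls in the floor plate and pronephros lists were thus few, with shares near those of all genes.

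The larval skin, where multiciliated cells sit among goblet cells, ionocytes and small secretory cells, gave 2 higher (krt18 and pfkfb3) and 1 lower (krt12) of 21 genes (median 0.09). Its summed level was 3367 to 6764 CPM in the KD and 3282 to 6098 CPM in the control, a wide overlap. Much of this sum is krt8 and krt12, with means of 2636 and 676 CPM in the KD and 1842 and 1434 CPM in the control. The fold changes of the skin genes ranged from -1.08 to 1.19 on the log2 scale, with 15 of the 21 above 0. With the replicate block the counts higher and lower were 9 and 2 for skin, 15 and 1 for neural progenitors, 8 and 0 for neurons, 4 and 1 for floor plate and 3 and 3 for pronephros. Over all genes the block gave 19.2% higher and 19.0% lower. In the 6 fits that left out 1 library, krt12 passed in 2, krt18 in 3 and pfkfb3 in 5. None of the marker genes was at 0 in a stage 32 library. The few calls in the skin list were also near the shares of all genes. The part of any shift in these cell type markers in the cilia gene result was not tested.

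**Figure D4:**
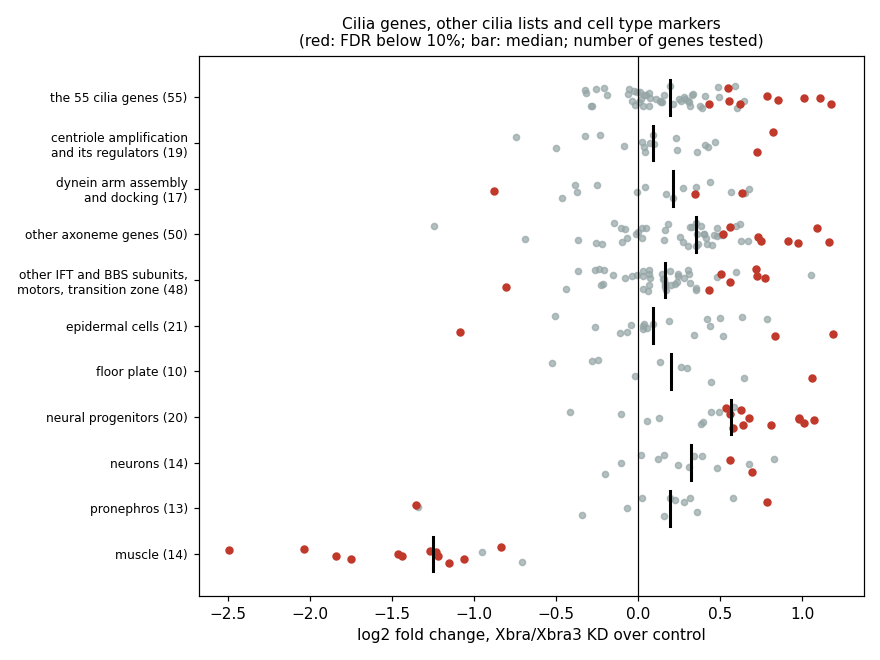
Log2 fold change, KD over control at stage 32, of each gene tested in the 55 cilia genes, the 4 further cilia lists and the 6 marker lists, with list medians as bars and genes with an FDR below 10% in red. The cilia lists have medians from 0.09 to 0.36, between the muscle genes at -1.25 and the neural progenitors at 0.57. The skin, pronephros, floor plate and neuron lists lie in the same range, at 0.09, 0.20, 0.20 and 0.32.

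The stage 20 library gives the level of the same genes earlier in development. It is 1 library of uninjected embryos, so it carries no test, and stage and injection cannot be told apart. It shares the control libraries with the KD comparison, and the values are set side by side only. After scaling of all 7 libraries together, 22 of the 55 cilia genes stood at least 2-fold above the control mean at stage 20 (40.0%, against 12.6% of all genes), and none stood at or below 0.5 of it (22.8% of all genes). At least 1.5-fold above stood 36 (65.5%, against 23.3% of all genes). The stage 20 level was above all 6 stage 32 libraries for 42 cilia genes (76.4%, against 30.9% of all genes). Over the 55 genes the median ratio of stage 20 to control was 1.86, against 0.97 over all genes, and 54 of the 55 ratios were above 1.

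The axoneme genes had a median ratio of stage 20 to control of 2.31. All 25 were above every stage 32 library and 16 of them (64.0%) at least 2-fold above the control mean, including 11 of the 12 dynein heavy chains. Dnah11 was at 66.0 CPM at stage 20, 7.79 times its control mean of 8.47 CPM, while its KD libraries were below that mean on average. The central pair gene spag6 was at 7.02 CPM (7.23 times), DNAH6 at 60.3 CPM (4.89 times) and dnah17 at 72.5 CPM (4.04 times). For these 4 genes the stage 20 level was 2.67 to 9.81 times the mean of the KD libraries. Tektins had ratios of stage 20 to control from 1.52 to 2.53 and radial spoke genes from 1.42 to 2.41. The IFT genes ranged from 1.03 for ift46 to 2.46 for ift80. BBSome genes had the lowest class median and ranged from 0.94 for bbs1 to 1.63 for bbs4, around a median of 1.09.

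The regulators differed among themselves at stage 20. Rfx2 was at 2.53 times its control mean, the highest of the 8, and foxj1.2 at 1.00 times. Foxj1 was at 69.6 CPM, 1.97 times the control mean of 35.4 CPM and 0.883 of the KD mean. Rfx4 was at 26.3 CPM, 1.86 times the control mean and 0.870 of the KD mean, and rfx1 at 1.18 and 0.888 of these means. For these 3 genes that rose in the KD the stage 20 level was thus below the KD mean, though within the range of the stage 32 libraries. For dnah5, dnah7, dnah17, ift81, ift140 and rsph9 it was above the KD mean, at 1.14 to 2.67 times. Foxj1.2, bbs1 and bbs12, not called without the block, were also below their KD means, at 0.916, 0.909 and 0.713 of them.

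**Figure D5:**
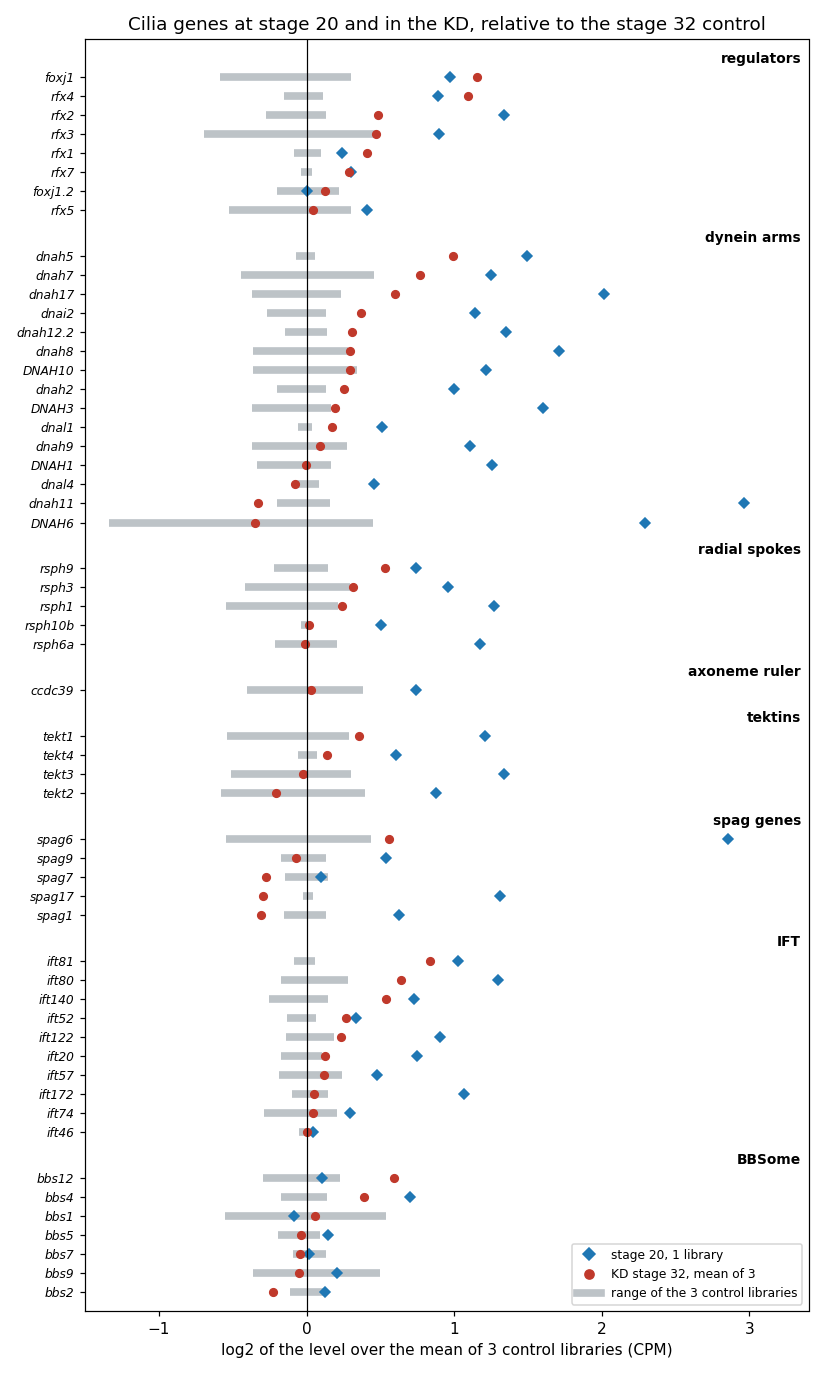
Level of each of the 55 cilia genes in the stage 20 library and in the mean of the 3 KD libraries, as log2 of the ratio to the mean of the 3 control libraries, with the range of the control libraries as a grey bar. The stage 20 level of every dynein arm, radial spoke, ruler and tektin gene lies to the right of the KD mean and of the control range. For foxj1, rfx4 and rfx1, and also for foxj1.2, bbs1 and bbs12, the KD mean lies further right.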

How the data were processed

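PolyA RNA of whole X. tropicalis embryos was sequenced by the authors as paired reads of 55 bases (TruSeq libraries, Illumina). Base calls came from CASAVA 1.8, and read pairs were aligned with Bowtie 0.12.7 to the Ensembl JGI4.1 transcriptome. Pairs on transcripts of different genes were discarded, and a pair on several transcripts of 1 gene was counted once. The authors deposited raw read counts per transcript, in 7 columns. The submitters also name DESeq. The header holds 6 empty fields before 7 library names, and the names were given to the 7 value columns in their order. Whether counting used strand is not given in the sources used here, so reads of overlapping genes cannot be told apart.

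Transcripts were summed per gene (19884 genes, and 39 of the 55 cilia genes have 1 transcript). The test, edgeR 4.0.16 (R 4.3.3, limma 3.58.1), took genes that summed to 10 reads or more across the 6 libraries of stage 32: TMM, quasi-likelihood F-test of KD against control, Benjamini-Hochberg over 16944 genes, FDR below 10%. CPM are read counts per 1000000 reads after TMM. Alternatives were 3 other scalings, 2 other filters, DESeq2 1.42.0, the leading transcript, an FDR of 5%, leaving out each library, the replicate number as a block, and, chosen after seeing the data, edgeR's legacy dispersions. The script was tested on simulated counts that held no replicate effect, so this test does not bear on whether the replicate block is needed. Library totals were 73740300 to 120160026 counted read pairs, and intervals from reads alone would cover counting error only. No gene coordinates or sequences are given because the annotation at hand is of another genome build.

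Every regulator was named with all values. In the other classes, every gene that passed the FDR was named, up to 4 with the largest change were given by library, and the rest by range with the extremes named. From each further list up to 3 genes that passed were named, and other genes named from the lists (spef1 and the cell type markers) were picked with their values in view. The gene set, lists and tests were chosen with earlier results of these data known. P-values measure the spread between the labelled biological replicates.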

Additional observations from a re-analysis of the deposited data

How the results depend on the processing

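The number of cilia genes higher in the KD was 9 with TMM and stayed between 8 and 13 with DESeq2 size factors, library size, no filter, edgeR's filterByExpr, DESeq2 (10, with rfx7 added), the leading transcript and legacy dispersions. It was 16 with the reference genes, 19 with the replicate block, 4 at an FDR below 5% (foxj1, rfx4, dnah5 and ift81) and 4 to 6 when 1 library was left out. The share of all genes called at an FDR below 5% was not counted. The number lower was 0 except for 2 with the replicate block and 0 to 1 when 1 library was left out (DNAH6, without control replicate 2). The median log2 fold change was 0.19, or 0.27 with library size, 0.39 with the reference genes and 0.11 to 0.22 when 1 library was left out. The 9 genes higher with TMM were all among the 19 of the fit with the replicate block, which added bbs12, DNAH10, dnah12.2, dnah8, dnai2, ift52, rfx2, rfx7, rsph3 and tekt1. Without 1 library, between 4 and 6 of the 9 were kept, 5 of them without control replicate 2. Over all genes the number called was 2443, 6468 with the block and 868 to 1961 without 1 library. Of 825 values of single cilia genes under these settings none changed sign with a call, 27 lost a call (25 of them without 1 library) and 25 gained one (12 with the block). At stage 20, 22 cilia genes stood at least 2-fold above the control mean and 36 at least 1.5-fold (65.5%, against 23.3% of all genes). Depth limits rfx3, rfx5, ift80, bbs4, spag6 and ccdc39, which had 167 to 709 reads over the 6 libraries. Promoter motifs were not analysed here.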
